A study of Mus musculus with 58 samples.

Results

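The genes described here are 38 lysosomal hydrolases, hydrolase cofactors and lysosomal membrane proteins, chosen by name and all present among the 15171 genes of the count table. They comprise 7 cysteine proteases, 3 other proteases, 12 enzymes that cleave glycans or glycolipids, 6 proteins of lipid handling, 3 cofactors and 7 membrane proteins. Their messenger RNA was counted in the brains of 58 mice on the C57BL/6 background, 3 months old, in which human APOE3 (E3) or APOE4 (E4) replaces the mouse Apoe gene, with both copies of Abca1 (Abca1+/+) or with 1 functional copy (Abca1+/-). Abca1 encodes a membrane transporter that loads lipid onto APOE. Traumatic brain injury (TBI) was a controlled cortical impact over the left parietal cortex, and sham mice had the anesthesia and the craniotomy without the impact. Hippocampus and cortex at the injury site were pooled from each mouse 14 days later, so each value is 1 mouse and a mixture of all cell types of both regions. The groups held 8 E3/Abca1+/+ sham, 8 E3/Abca1+/+ TBI, 7 E3/Abca1+/- sham, 6 E3/Abca1+/- TBI, 7 E4/Abca1+/+ sham, 7 E4/Abca1+/+ TBI, 7 E4/Abca1+/- sham and 8 E4/Abca1+/- TBI mice of both sexes. Every mouse of these groups carried human APOE and had a craniotomy, so the comparisons contain neither mouse Apoe nor brains without surgery.

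Lysosomes are acidic organelles in which proteins, glycans, glycolipids and lipids taken up from outside the cell or delivered by autophagy are taken apart. Soluble hydrolases do the cutting, small cofactors present lipids to them, and heavily glycosylated membrane proteins line the organelle and carry products out. In brain tissue, phagocytic microglia and infiltrating macrophages hold many lysosomes and high levels of cathepsins, whereas neurons and astrocytes also depend on the same enzymes, as the lysosomal storage diseases caused by loss of single members show.

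Total counts per mouse ran from 4421308 to 37877346. The Abca1+/- libraries were deeper than the Abca1+/+ libraries, with medians of 18871446 (n = 28) and 8350020 (n = 30), and depth thus moves with Abca1 copies. Between copies the totals were apart in E4 sham mice, at 4695676 to 14064531 against 18311106 to 28467098, so that depth and genotype cannot be told apart there, and they overlapped in the other strata. Levels are given as CPM, the counts of a gene scaled to equal library sizes with TMM factors. Abca1 itself ran from 37.7 to 60.8 CPM (median 47.7) in E3/Abca1+/+ and from 29.2 to 41.6 CPM (median 35.3) in E3/Abca1+/- sham mice, a log2 difference of -0.45 ± 0.08 (adjusted p = 0.00933) in edgeR's quasi-likelihood test. It ran from 33.3 to 51.7 CPM (median 48.9) and from 28.9 to 42.4 CPM (median 35.2) in the E4 sham groups, a difference of -0.35 ± 0.09 (adjusted p = 0.0783). Over all groups the mice labelled Abca1+/- were lower, with a log2 difference of -0.42 ± 0.09 (adjusted p = 0.000816), with overlap between the mice in every stratum. Abca1 also rose with TBI, by log2 fold changes of 1.80, 1.55, 1.76 and 1.92 in E3/Abca1+/+, E3/Abca1+/-, E4/Abca1+/+ and E4/Abca1+/- mice. In TBI mice it differed between copies by -0.71 ± 0.17 (adjusted p = 0.118) in E3 and by -0.19 ± 0.24 (adjusted p = 0.724) in E4 mice, with medians of 121 CPM in E4/Abca1+/+ and 130.1 CPM in E4/Abca1+/- TBI mice, so in the E4 TBI groups its level does not tell the genotypes apart. The 10 neuronal markers examined summed to at least 7286 CPM in every mouse, which goes with brain tissue but does not tell its regions apart. Markers of hippocampal neurons summed to 259 to 491 CPM, with no other region as a reference. A single sham mouse stood apart for these genes: replicate 2 of E4/Abca1+/- sham, a male, had the highest value of its group for 26 of the 38 and a mean log2(CPM + 1) over them of 6.16, against at most 5.88 in the other mice of the group. Its monocyte and macrophage markers summed to 70.3 CPM, the most of any sham mouse. Lyz2 had the highest mean of these markers in sham mice. Several results are given with and without this mouse. Summed choroid plexus markers ran from 9.28 to 2035 CPM over the 58 mice, and their part in the results was not tested.

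To describe the effect of injury, edgeR's quasi-likelihood test was run between TBI and sham mice of each genotype, and p was adjusted over all 15171 genes by the Benjamini-Hochberg method with a threshold of 0.05. Most of the lysosomal genes passed as higher after TBI in each genotype and none passed as lower. Smpd1 (-0.13 to -0.06) and Mcoln1 (-0.10 to -0.07) had log2 fold changes below 0 in all 4 genotypes. In E3/Abca1+/+ mice 27 of the 38 were higher, against a background of 12.5% of all genes higher and 10.8% lower. In E3/Abca1+/- mice 30 were higher, with 13.7% of all genes higher and 10.1% lower. In E4/Abca1+/+ mice 25 were higher, with 9.08% of all genes higher and 4.98% lower. In E4/Abca1+/- mice 32 were higher, with 17.7% of all genes higher and 16.3% lower. The median log2 fold change over the 38 was 0.57, 0.53, 0.51 and 0.73 in these 4 genotypes, in this order, and the median over all genes lay between -0.00427 and 0.00818. Without replicate 2 of E4/Abca1+/- sham, 32 of the 38 were higher in that genotype, with 16.7% of all genes.

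Of the 38 genes, 23 passed the test in all 4 genotypes, 9 in 1 to 3 of them and 6 in none. Of all genes, 7.13% were higher in all 4. The 23 were Cd63, Cd68, Ctsa, Ctsb, Ctsc, Ctsd, Ctsh, Ctsl, Ctss, Ctsz, Gm2a, Grn, Gusb, Hexa, Lamp1, Lamp2, Laptm5, Lgmn, Man2b1, Naglu, Npc2, Psap and Tpp1. Asah1, Galc, Glb1, Lipa and Scarb2 passed in 3 genotypes, Idua, Npc1 and Sgsh in 2, and Ppt1 in 1. Arsb, Gaa, Gla, Mcoln1, Neu1 and Smpd1 passed in none. Separation between mice was often complete. Every TBI mouse was above every sham mouse of its genotype for 23 of the genes in E3/Abca1+/+ mice, where this held for 4.36% of all genes. The counts were 25 in E3/Abca1+/- mice (6.57% of all genes), 20 in E4/Abca1+/+ mice (3.76%) and 24 in E4/Abca1+/- mice (7.36%). For 19 of the 38 genes there was no overlap in any of the 4 genotypes (2.21% of all genes), and for 10 all 29 TBI mice were above all 29 sham mice whatever their genotype (1.05% of all genes).

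**Figure D1:**
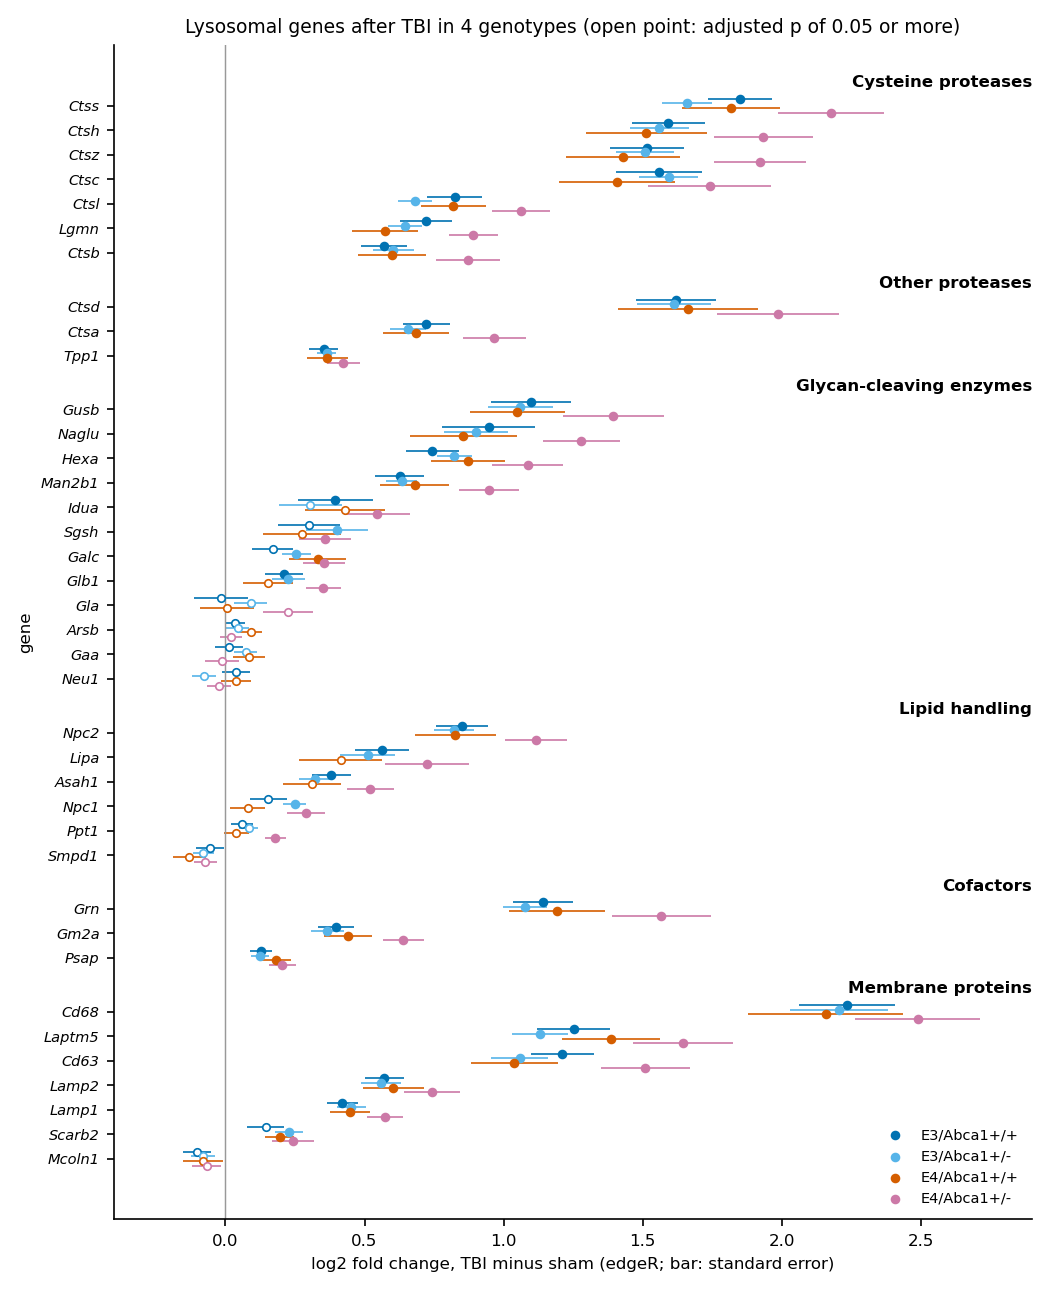
Log2 fold change (x axis, TBI minus sham, edgeR) of each of the 38 lysosomal genes (y axis, grouped by role), with bars for the standard error, in 4 genotypes. Filled points have an adjusted p under 0.05. The cysteine proteases are filled in all 4 genotypes, whereas Smpd1, Mcoln1, Neu1, Gaa, Gla and Arsb are open in all 4.

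Among the cysteine proteases all 7 were higher in every genotype, with median log2 fold changes of 1.52, 1.51, 1.41 and 1.74. Ctss (chr3:95526786-95556403, plus strand, GENCODE M21 on GRCm38, as all gene positions given here) changed most. It is a protease of microglia and macrophages that trims the invariant chain before antigen presentation. In E3 mice, Ctss ran from 62.5 to 78.1 CPM (median 70.3) in Abca1+/+ sham mice and from 178 to 339 CPM (median 236) in their injured counterparts, and from 64.3 to 94.2 CPM (median 77.0) in Abca1+/- sham mice and from 206 to 277 CPM (median 247) in injured ones. In E4 mice, Ctss ran from 58.6 to 82.6 CPM (median 62.3) in Abca1+/+ sham mice and from 163 to 399.7 CPM (median 205) in their injured counterparts, and from 52.0 to 136 CPM (median 76.7) in Abca1+/- sham mice and from 235 to 510.4 CPM (median 396) in injured ones. No TBI mouse overlapped with a sham mouse of its genotype. Its log2 fold changes, in the order E3/Abca1+/+, E3/Abca1+/-, E4/Abca1+/+ and E4/Abca1+/-, were 1.85, 1.66, 1.82 and 2.18 (SE 0.12, 0.09, 0.18 and 0.19), and the largest of the adjusted p-values was 1.8e-05.

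Ctsh, mainly an aminopeptidase, was a low-count gene that rose about as much. In E3 mice, Ctsh ran from 7.99 to 11.9 CPM (median 9.81) in Abca1+/+ sham mice and from 22.9 to 41.4 CPM (median 25.1) in their injured counterparts, and from 8.92 to 11.9 CPM (median 10.1) in Abca1+/- sham mice and from 21.9 to 38.2 CPM (median 30.1) in injured ones. In E4 mice, Ctsh ran from 7.41 to 12.0 CPM (median 9.26) in Abca1+/+ sham mice and from 18.9 to 53.0 CPM (median 22.8) in their injured counterparts, and from 8.80 to 16.0 CPM (median 10.5) in Abca1+/- sham mice and from 26.8 to 61.1 CPM (median 44.3) in injured ones. There was no overlap between TBI and sham mice in any genotype, and the log2 fold changes were 1.59, 1.56, 1.51 and 1.93 (SE 0.13, 0.11, 0.22 and 0.18; largest adjusted p 0.000220).

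Ctsz, a carboxypeptidase, and Ctsc, a dipeptidyl peptidase that activates serine proteases of immune cells, followed. In E3 mice, Ctsz ran from 29.5 to 37.0 CPM (median 31.7) in Abca1+/+ sham mice and from 62.9 to 129.6 CPM (median 88.9) in their injured counterparts, and from 27.6 to 37.5 CPM (median 33.8) in Abca1+/- sham mice and from 76.2 to 119 CPM (median 91.8) in injured ones. In E4 mice, Ctsz ran from 27.6 to 35.4 CPM (median 33.1) in Abca1+/+ sham mice and from 55.7 to 170.4 CPM (median 77.3) in their injured counterparts, and from 31.2 to 55.7 CPM (median 33.8) in Abca1+/- sham mice and from 96.2 to 189 CPM (median 146) in injured ones. TBI and sham mice did not overlap in any genotype, and log2 fold changes were 1.52, 1.51, 1.43 and 1.92 (SE 0.13, 0.10, 0.20 and 0.17; largest adjusted p 0.000220). In E3 mice, Ctsc ran from 6.19 to 9.60 CPM (median 7.98) in Abca1+/+ sham mice and from 15.9 to 36.1 CPM (median 19.8) in their injured counterparts, and from 5.68 to 8.39 CPM (median 7.87) in Abca1+/- sham mice and from 17.6 to 26.6 CPM (median 22.5) in injured ones. In E4 mice, Ctsc ran from 5.56 to 13.3 CPM (median 7.34) in Abca1+/+ sham mice and from 14.6 to 37.7 CPM (median 17.3) in their injured counterparts, and from 5.26 to 14.9 CPM (median 7.96) in Abca1+/- sham mice and from 19.8 to 48.8 CPM (median 30.7) in injured ones. Ctsc showed no overlap in any genotype, the nearest pair being E4/Abca1+/+ mice, in which 1 sham mouse reached 13.3 CPM. Its log2 fold changes were 1.56, 1.59, 1.41 and 1.74 (SE 0.15, 0.11, 0.21 and 0.22; largest adjusted p 0.000277).

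The remaining cysteine proteases rose by less. Ctsl, a broad endopeptidase (chr13:64359337-64370890, minus strand), had log2 fold changes of 0.82, 0.68, 0.82 and 1.06 (SE 0.10, 0.06, 0.12 and 0.10; largest adjusted p 0.000220). Lgmn, the asparaginyl endopeptidase that also matures other cathepsins, had log2 fold changes of 0.72, 0.65, 0.57 and 0.89 (largest adjusted p 0.00337). Ctsb, an abundant endopeptidase of most cells, went from a median of 651 CPM in E3/Abca1+/+ sham mice to 933 CPM after injury, and from 692 to 1330.4 CPM in E4/Abca1+/- mice. Its log2 fold changes were 0.57, 0.60, 0.60 and 0.87 (largest adjusted p 0.00340). TBI mice were wholly above sham mice in all 4 genotypes for Ctsl, Lgmn and Ctsb.

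The 3 proteases of other classes also passed in every genotype. Ctsd (chr7:142375911-142388038, minus strand), the main aspartic protease of the lysosome, was among the most abundant of the 38. In E3 mice, Ctsd ran from 351 to 421 CPM (median 383) in Abca1+/+ sham mice and from 745 to 1799 CPM (median 1106) in their injured counterparts, and from 378 to 425 CPM (median 402) in Abca1+/- sham mice and from 786 to 1620.3 CPM (median 1205) in injured ones. In E4 mice, Ctsd ran from 341 to 397 CPM (median 357) in Abca1+/+ sham mice and from 662 to 2505 CPM (median 800.4) in their injured counterparts, and from 365 to 724 CPM (median 417) in Abca1+/- sham mice and from 901 to 2828 CPM (median 1804) in injured ones. The groups overlapped in none of the genotypes, although the highest E4/Abca1+/- sham mouse, replicate 2, reached 724 CPM, within the range of E4/Abca1+/+ TBI mice. The log2 fold changes of Ctsd were 1.62, 1.61, 1.66 and 1.99 (SE 0.14, 0.13, 0.25 and 0.22; largest adjusted p 0.000325). Ctsa, a serine carboxypeptidase that also stabilizes the enzymes encoded by Neu1 and Glb1, had log2 fold changes of 0.72, 0.66, 0.69 and 0.97 (largest adjusted p 0.000821). Tpp1, a tripeptidyl peptidase lost in a childhood neuronal ceroid lipofuscinosis, changed least of the 3, at 0.35, 0.36, 0.37 and 0.42 (largest adjusted p 0.00316), yet its TBI mice were above its sham mice without overlap in all 4 genotypes.

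Of the 7 membrane proteins 5, 6, 6 and 6 passed in the 4 genotypes. Cd68 (chr11:69664213-69666153, minus strand), macrosialin, a glycoprotein of late endosomes in phagocytes and a usual marker of their activation, had the largest mean change of the 38 genes, at 2.27 on the log2 scale over the 4 genotypes. In E3 mice, Cd68 ran from 7.40 to 12.3 CPM (median 8.80) in Abca1+/+ sham mice and from 25.6 to 58.6 CPM (median 38.5) in their injured counterparts, and from 7.04 to 9.46 CPM (median 8.48) in Abca1+/- sham mice and from 23.9 to 54.4 CPM (median 36.7) in injured ones. In E4 mice, Cd68 ran from 7.51 to 10.1 CPM (median 8.11) in Abca1+/+ sham mice and from 22.2 to 84.7 CPM (median 28.6) in their injured counterparts, and from 8.01 to 19.0 CPM (median 10.5) in Abca1+/- sham mice and from 35.8 to 90.0 CPM (median 64.8) in injured ones. No TBI mouse overlapped with a sham mouse of its genotype, and the log2 fold changes were 2.24, 2.21, 2.16 and 2.49 (SE 0.17, 0.17, 0.28 and 0.23; largest adjusted p 0.000109). Laptm5, a transmembrane protein of lysosomes in hematopoietic cells, was the next. In E3 mice, Laptm5 ran from 32.2 to 47.1 CPM (median 43.9) in Abca1+/+ sham mice and from 74.8 to 151 CPM (median 90.1) in their injured counterparts, and from 37.4 to 45.4 CPM (median 40.4) in Abca1+/- sham mice and from 64.5 to 113 CPM (median 89.1) in injured ones. In E4 mice, Laptm5 ran from 38.2 to 45.7 CPM (median 42.4) in Abca1+/+ sham mice and from 69.3 to 183 CPM (median 93.9) in their injured counterparts, and from 36.8 to 62.0 CPM (median 44.5) in Abca1+/- sham mice and from 86.3 to 205 CPM (median 140.1) in injured ones. Its TBI and sham mice did not overlap in any genotype, with log2 fold changes of 1.25, 1.13, 1.39 and 1.64 (SE 0.13, 0.10, 0.18 and 0.18; largest adjusted p 0.000102).

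Cd63, a tetraspanin of late endosomes and exosomes, rose by 1.21, 1.06, 1.04 and 1.51 on the log2 scale (largest adjusted p 0.000313). The structural glycoproteins Lamp2 and Lamp1, which are found on lysosomes of all cells, rose by less, with log2 fold changes of 0.57, 0.56, 0.60 and 0.74 for Lamp2 (largest adjusted p 0.00131) and 0.42, 0.45, 0.45 and 0.57 for Lamp1 (largest adjusted p 0.000431). Lamp1 was without overlap in all 4 genotypes and Lamp2 in 3. Scarb2, the receptor that carries glucocerebrosidase to lysosomes, had log2 fold changes of 0.14, 0.23, 0.19 and 0.24, and the first of these did not pass (adjusted p = 0.132). Mcoln1, a cation channel of the lysosomal membrane, passed in none of the genotypes.

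**Figure D2:**
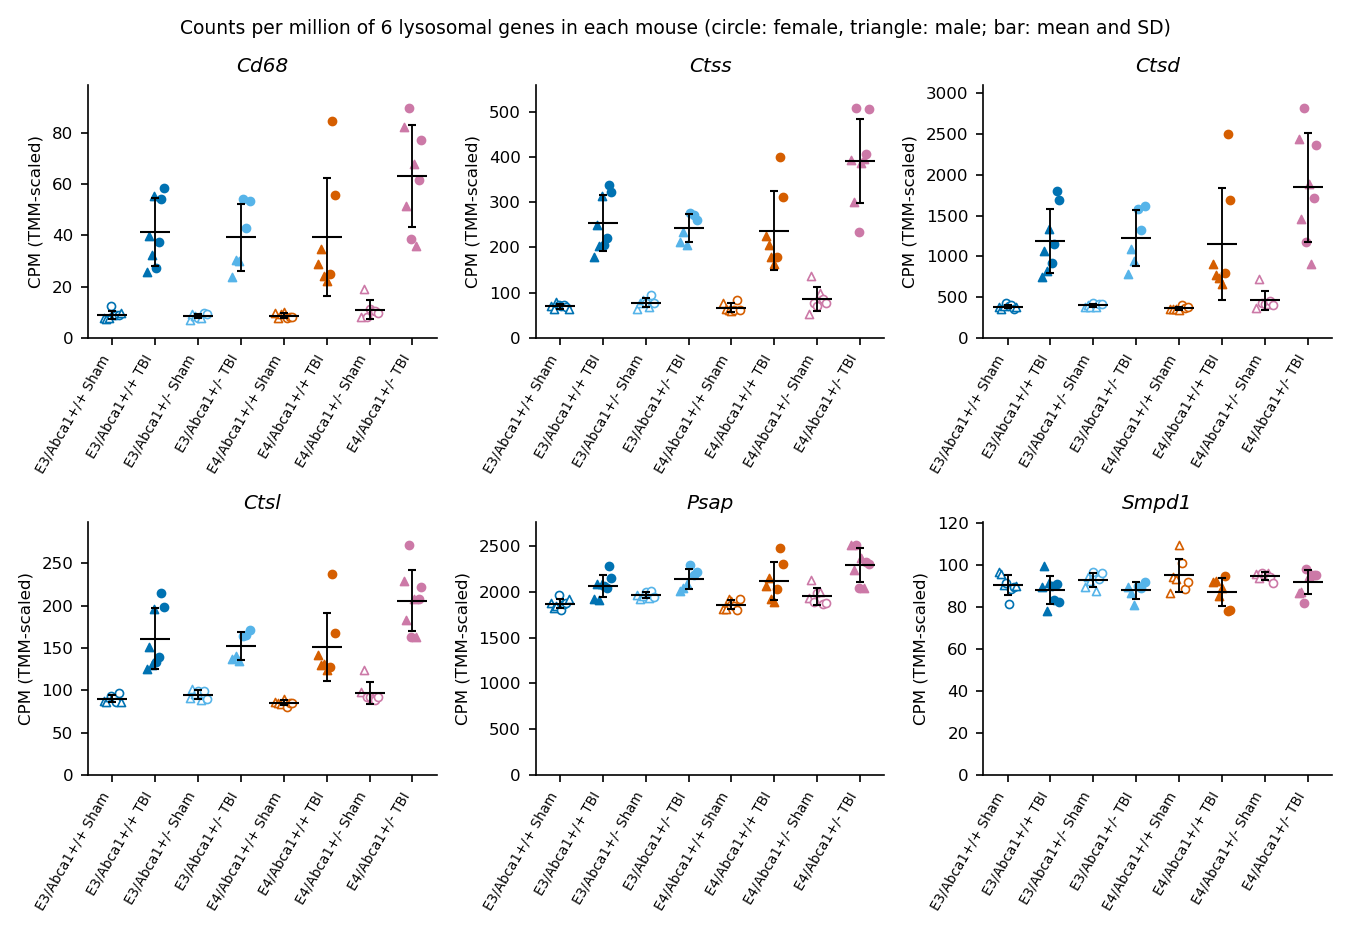
TMM-scaled CPM (y axis, linear from 0) of Cd68, Ctss, Ctsd, Ctsl, Psap and Smpd1 in each mouse of the 8 groups (x axis); open symbols are sham and filled symbols TBI mice, circles females and triangles males, and the bars give the mean and SD. Within each genotype TBI mice lie above sham mice for the first 4 genes, with the highest mean in E4/Abca1+/- TBI mice, and Smpd1 overlaps throughout.

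The 12 glycan-cleaving enzymes were divided, with 6, 7, 5 and 8 passing in the 4 genotypes and medians of 0.26, 0.28, 0.30 and 0.36. Gusb, beta-glucuronidase, and Naglu, an enzyme of heparan sulfate breakdown, changed most. The log2 fold changes were 1.10, 1.06, 1.05 and 1.40 for Gusb (largest adjusted p 0.000542) and 0.95, 0.90, 0.86 and 1.28 for Naglu (largest adjusted p 0.00644). Hexa, a subunit of beta-hexosaminidase that acts on gangliosides, followed at 0.74, 0.82, 0.87 and 1.09 (largest adjusted p 0.000325), and Man2b1, lysosomal alpha-mannosidase, at 0.63, 0.63, 0.68 and 0.95 (largest adjusted p 0.00129). These were the members of the group that passed in all 4 genotypes. Galc, which cleaves the myelin lipid galactosylceramide, gave 0.17, 0.26, 0.33 and 0.35 with adjusted p of 0.101, 0.00199, 0.0387 and 0.00164. Glb1, beta-galactosidase, gave 0.21, 0.23, 0.15 and 0.35 with adjusted p of 0.0275, 0.0116, 0.291 and 0.000364. Among the other heparan sulfate enzymes, Idua gave 0.40, 0.31, 0.43 and 0.55 (adjusted p 0.0399, 0.0638, 0.0561 and 0.00170) and Sgsh 0.30, 0.40, 0.27 and 0.36 (adjusted p 0.0541, 0.0146, 0.219 and 0.00638).

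Neu1, Gaa, Arsb and Gla are the enzymes of the same class that passed in no genotype. Neu1, the lysosomal sialidase, had log2 fold changes of 0.04, -0.08, 0.04 and -0.02 (SE 0.05, 0.04, 0.05 and 0.04) and Gaa, which breaks down glycogen, of 0.01, 0.07, 0.09 and -0.01 (SE 0.05, 0.04, 0.06 and 0.06). In E3 mice, Neu1 ran from 49.2 to 55.5 CPM (median 53.9) in Abca1+/+ sham mice and from 50.6 to 62.4 CPM (median 54.3) in their injured counterparts, and from 54.5 to 62.3 CPM (median 57.6) in Abca1+/- sham mice and from 52.6 to 61.6 CPM (median 54.0) in injured ones. In E4 mice, Neu1 ran from 50.9 to 56.6 CPM (median 56.2) in Abca1+/+ sham mice and from 51.3 to 61.3 CPM (median 58.1) in their injured counterparts, and from 53.7 to 61.9 CPM (median 58.0) in Abca1+/- sham mice and from 53.8 to 62.2 CPM (median 57.8) in injured ones. TBI and sham ranges of Neu1 overlapped in all 4 genotypes. In E3 mice, Gaa ran from 391 to 484 CPM (median 441) in Abca1+/+ sham mice and from 419.6 to 505 CPM (median 447) in their injured counterparts, and from 429.7 to 499.5 CPM (median 468) in Abca1+/- sham mice and from 459.7 to 519 CPM (median 493) in injured ones. In E4 mice, Gaa ran from 402 to 456 CPM (median 427) in Abca1+/+ sham mice and from 409 to 549 CPM (median 440.2) in their injured counterparts, and from 401 to 518 CPM (median 445) in Abca1+/- sham mice and from 369 to 500.1 CPM (median 454) in injured ones. Gaa overlapped in all 4 genotypes as well, and its sign in E3/Abca1+/+ and E4/Abca1+/- mice depended on which mice were fitted. Arsb, which removes sulfate from dermatan sulfate, gave 0.03, 0.04, 0.09 and 0.02 (SE 0.04, 0.04, 0.04 and 0.04; smallest adjusted p 0.139). Gla, alpha-galactosidase A, gave -0.02, 0.09, 0.00 and 0.22 (SE 0.10, 0.06, 0.10 and 0.09), with an adjusted p of 0.0607 in E4/Abca1+/- mice.

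Among the 6 genes of lipid handling, 3, 4, 1 and 5 passed in the 4 genotypes. Npc2, the soluble protein that binds cholesterol and hands it to the membrane transporter encoded by Npc1, was the one that passed in all 4, with log2 fold changes of 0.85, 0.82, 0.83 and 1.12 (SE 0.09, 0.07, 0.14 and 0.11; largest adjusted p 0.000959). Npc1 itself gave 0.15, 0.25, 0.08 and 0.29 (adjusted p 0.0945, 0.000307, 0.473 and 0.00330). Lipa, the acid lipase that hydrolyses cholesteryl esters, gave 0.56, 0.51, 0.41 and 0.73 (adjusted p 0.000215, 0.00119, 0.0758 and 0.00127), and Asah1, acid ceramidase, 0.38, 0.32, 0.31 and 0.52 (adjusted p 0.000380, 0.000580, 0.0523 and 0.000136). Ppt1, which removes palmitate from proteins, passed in E4/Abca1+/- mice alone at 0.18 (adjusted p = 0.00106), where its TBI mice were wholly above its sham mice. The difference of that change from the one in E4/Abca1+/+ mice was 0.15 ± 0.05 (adjusted p = 0.952).

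Smpd1 (chr7:105554360-105558389, plus strand), acid sphingomyelinase, had the lowest mean change of the 38 genes. In E3 mice, Smpd1 ran from 81.6 to 96.7 CPM (median 90.3) in Abca1+/+ sham mice and from 78.1 to 99.7 CPM (median 89.7) in their injured counterparts, and from 87.8 to 96.5 CPM (median 93.4) in Abca1+/- sham mice and from 80.8 to 91.8 CPM (median 89.1) in injured ones. In E4 mice, Smpd1 ran from 86.4 to 109.6 CPM (median 93.2) in Abca1+/+ sham mice and from 78.1 to 94.6 CPM (median 88.9) in their injured counterparts, and from 91.4 to 96.4 CPM (median 95.1) in Abca1+/- sham mice and from 81.9 to 98.0 CPM (median 95.0) in injured ones. These ranges overlapped in every genotype, and the log2 fold changes were -0.06, -0.08, -0.13 and -0.07 (SE 0.05, 0.04, 0.06 and 0.04; adjusted p 0.464, 0.137, 0.173 and 0.192). Mcoln1 was close to it. In E3 mice, Mcoln1 ran from 55.4 to 66.3 CPM (median 58.9) in Abca1+/+ sham mice and from 50.8 to 61.3 CPM (median 56.3) in their injured counterparts, and from 54.2 to 60.4 CPM (median 56.2) in Abca1+/- sham mice and from 47.2 to 56.8 CPM (median 54.4) in injured ones. In E4 mice, Mcoln1 ran from 47.0 to 66.5 CPM (median 58.2) in Abca1+/+ sham mice and from 49.6 to 67.6 CPM (median 55.8) in their injured counterparts, and from 48.3 to 62.3 CPM (median 55.2) in Abca1+/- sham mice and from 46.6 to 56.3 CPM (median 54.0) in injured ones. The ranges of Mcoln1 overlapped too, with log2 fold changes of -0.10, -0.08, -0.08 and -0.07 (SE 0.05, 0.04, 0.07 and 0.05; adjusted p 0.157, 0.198, 0.517 and 0.337).

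All 3 cofactors passed in every genotype, by very unequal amounts. Grn encodes progranulin, whose granulins are made in the lysosome and whose loss causes frontotemporal dementia or a lipofuscinosis. In E3 mice, Grn ran from 68.5 to 79.9 CPM (median 74.3) in Abca1+/+ sham mice and from 121 to 218 CPM (median 155) in their injured counterparts, and from 73.8 to 79.0 CPM (median 76.4) in Abca1+/- sham mice and from 124 to 191 CPM (median 160.1) in injured ones. In E4 mice, Grn ran from 63.1 to 73.3 CPM (median 69.2) in Abca1+/+ sham mice and from 105 to 273 CPM (median 135) in their injured counterparts, and from 67.7 to 102 CPM (median 75.5) in Abca1+/- sham mice and from 136 to 333 CPM (median 225) in injured ones. TBI and sham mice were apart in all 4 genotypes, with log2 fold changes of 1.14, 1.08, 1.19 and 1.57 (SE 0.11, 0.08, 0.17 and 0.18; largest adjusted p 0.000230). Gm2a, the activator that lifts the ganglioside GM2 out of membranes for the hexosaminidase, had log2 fold changes of 0.40, 0.37, 0.44 and 0.64 (largest adjusted p 0.00272). Psap, the precursor of the saposins that sphingolipid hydrolases need, rose by 0.13, 0.12, 0.18 and 0.20 (SE 0.04, 0.03, 0.05 and 0.05; adjusted p 0.0197, 0.00912, 0.0295 and 0.00344).

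Levels between genes can be set side by side only per length. As CPM per kilobase of exon, Psap was the highest of the 38 in sham mice, at 696 ± 27.2 (SD, n = 29), and in TBI mice, at 786 ± 64.6 (SD, n = 29). Ctsd was the next in both, at 188 ± 32.1 and 643 ± 283, so that its distance to Psap narrowed. Lamp1 and Ctsb stood at 155 ± 7.55 and 141 ± 9.27 in sham mice and at 218 ± 29.4 and 229 ± 57.4 in TBI mice, spreads that overlap within each condition. Cd68, at 7.34 ± 1.80 in sham mice and 36.9 ± 15.9 after injury, moved from place 30 to place 14. Gaa held place 5 in sham and 6 in TBI mice without passing the test in any genotype. Ctsc and Sgsh were the lowest in sham mice, at 1.54 ± 0.412 and 1.61 ± 0.211. The fewest reads of any of the 38 genes in any mouse were 26.

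The tissue was bulk, so a change in the number of cells of a type and a change in RNA per cell cannot be told apart. Cell type markers moved with the lysosomal genes. Of 12 microglial markers, Cx3cr1, Tmem119 and P2ry12 among them, 12, 12, 11 and 12 were higher after TBI in the 4 genotypes and none was lower. Their summed level was 741 CPM in E3/Abca1+/+ TBI mice (range 627 to 932) against 403 CPM in sham mice (range 354 to 472), a ratio of 1.84. The ratio was 1.75 in E3/Abca1+/- mice (TBI range 589 to 822 CPM, sham range 378 to 428 CPM). It was 1.85 in E4/Abca1+/+ mice (TBI 561 to 988 CPM, sham 352 to 426 CPM) and 2.13 in E4/Abca1+/- mice (TBI 682 to 1138 CPM, sham 357 to 503 CPM). Of the 38 lysosomal genes, 11, 13, 10 and 12 had a larger log2 fold change than this sum. Expressed as a percent of the microglial sum in the same mouse, Cd68 went from 2.21 ± 0.287 (SD) in E3/Abca1+/+ sham to 5.50 ± 1.16 in TBI mice, and from 2.55 ± 0.604 to 6.86 ± 1.29 in E4/Abca1+/- mice. Psap went the other way on this scale, from 467 ± 37.9 to 283 ± 27.9 in E3/Abca1+/+ mice.

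Of 10 monocyte and macrophage markers, 7, 6, 6 and 6 were higher in the 4 genotypes and none was lower. Lyz2, lysozyme, had a mean log2 fold change of 4.57, and the monocyte receptor gene Ccr2 went from a mean of 0.312 to 2.28 CPM. The summed level of these markers reached 695 CPM in E4/Abca1+/- TBI mice (lowest 97.8), 585 in E4/Abca1+/+ (lowest 71.5), 362 in E3/Abca1+/- (lowest 75.4) and 346 in E3/Abca1+/+ TBI mice (lowest 61.9). Most of this sum was Lyz2, with a mean of 206 CPM in TBI mice, where the next marker, Mrc1, had 7.40 CPM. The sum thus follows 1 gene more than the list. Of 8 astrocyte markers 5, 6, 5 and 6 were higher, led by Gfap at a mean log2 fold change of 2.37, and of 10 neuronal markers 6, 7, 4 and 9 were lower, Snap25 by a mean of -0.39. Of 8 lymphocyte markers 2 were among the genes of the table, and they summed to at most 12.4 CPM. The part of these cell types in the change of the lysosomal genes was not tested.

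**Figure D3:**
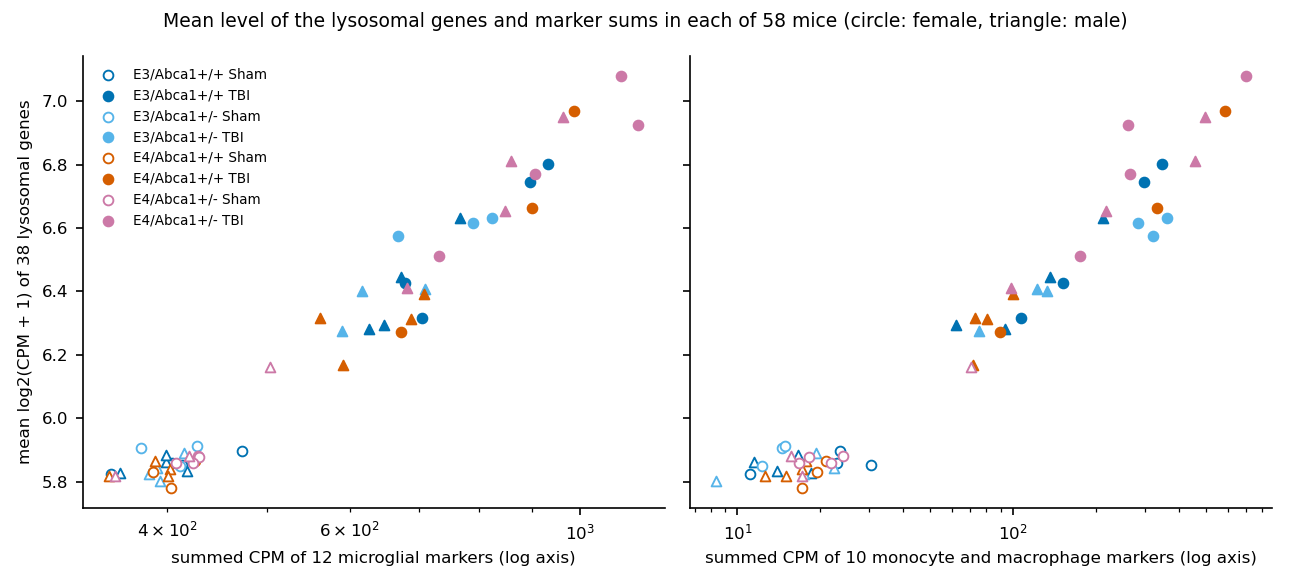
Mean log2(CPM + 1) of the 38 lysosomal genes in each of 58 mice (y axis) against the summed CPM of 12 microglial markers (left) and of 10 monocyte and macrophage markers (right), both on log axes; open symbols are sham and filled symbols TBI mice. TBI mice lie up and to the right of sham mice, and the sham mouse nearest to them is replicate 2 of E4/Abca1+/- sham at a mean of 6.16. The sum on the right is mostly Lyz2 in the mean of TBI mice.

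The mice of a group differed far more after injury than after sham surgery. The mean log2(CPM + 1) over the 38 genes ran from 5.82 to 5.90 in E3/Abca1+/+ sham mice and from 6.28 to 6.80 in TBI mice, from 5.80 to 5.91 and from 6.27 to 6.63 in E3/Abca1+/- mice. It ran from 5.78 to 5.87 in E4/Abca1+/+ sham and from 6.17 to 6.97 in TBI mice, and from 5.82 to 6.16 and from 6.41 to 7.08 in E4/Abca1+/- mice. The coefficient of variation of CPM was larger in TBI than in sham mice for 35, 31, 32 and 31 of the 38 genes, and for 58.7, 57.1, 66.9 and 68.1% of all genes. Its median over the 38 in TBI mice was 18.4, 10.6, 25.1 and 17.2%, against 6.60, 5.53, 7.10 and 9.29% in sham mice. Without replicate 2 of E4/Abca1+/- sham, that median in E4/Abca1+/- sham mice was 6.03%, and the variation was larger after TBI for 33 of the 38 and 67.2% of all genes. In E4/Abca1+/+ TBI mice it reached 58.7% for Cd68 and 59.8% for Ctsd, and was 7.73% for Smpd1.

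Within an injured group, the same mouse was often the highest or the lowest for many of the genes. Replicate 6 of E4/Abca1+/+ TBI, a female, had the highest value of its 7 mice for 32 of the 38 genes, and replicate 4, a male, the lowest for 24. In E4/Abca1+/- TBI mice replicate 3, a female, was the highest of 8 for 26 and replicate 6, a male, the lowest for 23. In E3/Abca1+/- TBI mice replicate 4, a female, was the highest of 6 for 19 and replicate 1, a male, the lowest for 26. In E3/Abca1+/+ TBI mice the counts were 17 for replicate 8, a female, and 11 for replicate 1, a male. No share of all genes is given for these counts. The microglial sum was 988 CPM in replicate 6 and 591 CPM in replicate 4 of E4/Abca1+/+ TBI, and the macrophage sum 585 and 71.5 CPM. The extent of the lesion in each mouse was not among the values used here.

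The injury effect was also compared between the sexes, with 14 female and 15 male TBI mice over the 4 genotypes. No gene of the table passed in edgeR's quasi-likelihood test of the interaction of injury with sex (0% of all genes), the 38 lysosomal genes included, and DESeq2's test passed 0 of them. At an unadjusted p under 0.05, 24 of the 38 had a larger change in females and none in males, where 5.42% of all genes had a larger change in females. Without replicate 2 of E4/Abca1+/- sham these were 21 of the 38 and 4.49% of all genes, and 0 of the 38 passed after adjustment. Lgmn, Laptm5 and Ctsd led. Lgmn ran from 146 to 278 CPM (median 199) in injured females and from 149 to 260.01 CPM (median 159) in injured males, and its medians in sham females and males were 111 and 117 CPM. Laptm5 ran from 74.8 to 205 CPM (median 119) in injured females and from 64.5 to 174 CPM (median 93.8) in injured males, and its medians in sham females and males were 41.1 and 44.5 CPM. Ctsd ran from 800.4 to 2828 CPM (median 1655) in injured females and from 662 to 2440.3 CPM (median 909) in injured males, and its medians in sham females and males were 408 and 378 CPM. The sexes overlapped in all 3 genes. The log2 fold change of Lgmn was 0.88 ± 0.07 in females and 0.57 ± 0.06 in males, a difference of 0.31 ± 0.09, and that of Ctsd 2.01 ± 0.13 in females and 1.41 ± 0.13 in males, a difference of 0.60 ± 0.18, with an adjusted p of 0.334 for both and for Laptm5. Hexa (0.35 ± 0.11), Gusb (0.46 ± 0.15) and Man2b1 (0.29 ± 0.10) came next. The median difference in log2 fold change, females minus males, was 0.25 over the 38 and 0.00462 over all genes. Female means were above male means for 34, 36, 34 and 32 of the 38 genes in TBI mice of the 4 genotypes, and for 21, 25, 15 and 7 in sham mice. The last of these became 21 without replicate 2 of E4/Abca1+/- sham, a male. No share of all genes is given for these counts of means. The microglial sum was higher in injured females too, with means of 803, 759.8, 854 and 968 CPM against 678, 639, 637 and 837 CPM in injured males. Monocyte and macrophage markers, mostly Lyz2 in the mean of TBI mice, summed to means of 226, 322, 336 and 349 CPM in injured females. In injured males these means were 126, 109.9, 81.1 and 316 CPM. The part of these cells in the difference was not tested.

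**Figure D4:**
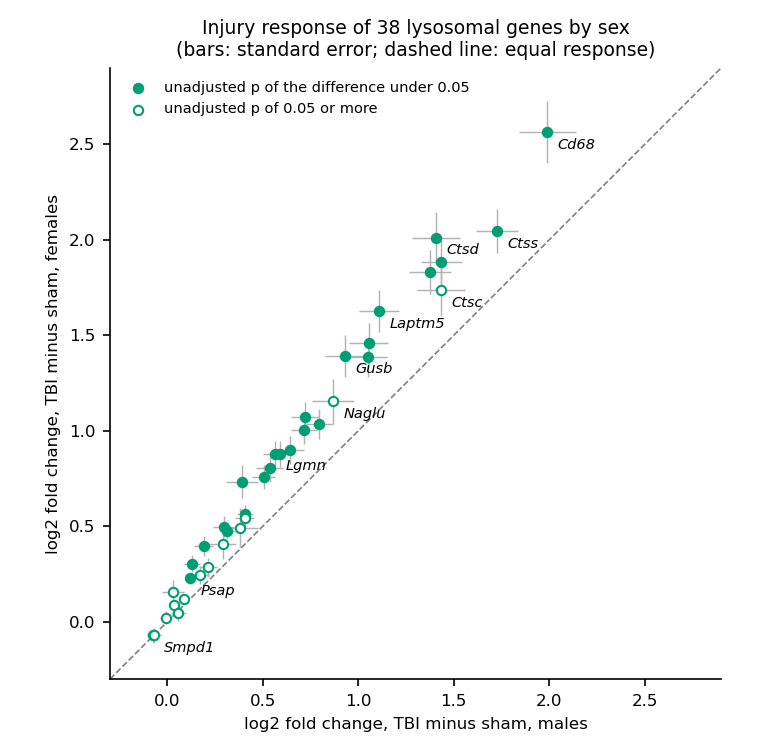
Log2 fold change (TBI minus sham, over 4 genotypes) of the 38 lysosomal genes in males (x axis) and females (y axis), with bars for the standard error and a dashed line of equal change. Points lie above the line for 36 of the 38 genes; filled points have an unadjusted p of the difference under 0.05, and no adjusted p is below 0.334.

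To compare the size of the response between genotypes, the changes were first set side by side. The largest of the 4 log2 fold changes was that of E4/Abca1+/- mice for 33 of the 38 genes and for 27.8% of all genes. It was that of E4/Abca1+/+ mice for 3, of E3/Abca1+/- mice for 1 and of E3/Abca1+/+ mice for 1. Among the 4 injured groups, E4/Abca1+/- TBI mice had the highest mean CPM for 35 of the 38 and for 35.2% of all genes. The differences were then tested as interactions. The interaction of isoform and injury in Abca1+/- mice passed for no gene (0% of all) with edgeR's quasi-likelihood test, and for 0 of the 38 with DESeq2. At an unadjusted p under 0.05 it was positive for 12 of the 38 and negative for none, where 6.34% of all genes had such a p in either direction (Ctsl 0.40 ± 0.13, Gm2a 0.30 ± 0.10, smallest adjusted p 0.722). The interaction of Abca1 copies and injury in E4 mice passed for no gene (0%), for 0 of the 38 with DESeq2, and at an unadjusted p under 0.05 for 3 of them, against 4.84% of all genes (Ppt1, Npc1 and Lgmn; smallest adjusted p 0.952). The other interactions, of isoform in Abca1+/+ mice (0% of all genes) and of Abca1 copies in E3 mice (0%), passed for no gene, and at an unadjusted p under 0.05 for 0 and 0 of the 38, against 2.12% and 2.15% of all genes. DESeq2 passed 0 and 0 of them there.

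Between isoforms, injured Abca1+/- mice differed in 2 of the lysosomal genes, Ctss and Ctsl, both higher in E4 mice, with 2.9% of all genes passing in either direction. Ctss ran from 235 to 510.4 CPM (median 396) in E4/Abca1+/- TBI mice, from 206 to 277 CPM (median 247) in E3/Abca1+/- TBI mice and from 163 to 399.7 CPM (median 205) in E4/Abca1+/+ TBI mice. In Ctss the E4/Abca1+/- and E3/Abca1+/- ranges overlapped only between 235 and 277 CPM. Ctsl ran from 163 to 272 CPM (median 208) in E4/Abca1+/- TBI mice, from 134 to 171 CPM (median 153) in E3/Abca1+/- TBI mice and from 124 to 237 CPM (median 132) in E4/Abca1+/+ TBI mice. In Ctsl the corresponding overlap ran from 163 to 171 CPM. The log2 differences (E4 minus E3) were 0.67 ± 0.14 (adjusted p = 0.0213) for Ctss and 0.42 ± 0.10 (adjusted p = 0.0389) for Ctsl in edgeR's quasi-likelihood test. The count turned on single mice. None of the 38 passed without replicate 1, 2 or 3 of E3/Abca1+/- TBI, the 3 males of that group, fits in which 1.52, 1.26 and 1.05% of all genes passed. The count was 13 without replicate 6 of E4/Abca1+/- TBI (4.01% of all genes) and 6 without replicate 4 of that group (3.36%). A single gene passed without replicate 4 or 5 of E3/Abca1+/- TBI or without replicate 1, 3, 5, 7 or 8 of E4/Abca1+/- TBI. Over the 14 fits without 1 mouse, from 1.05 to 4.01% of all genes passed. With sex in the model 7 of the 38 passed, and 3.76% of all genes. At an unadjusted p under 0.05, 25 of the 38 were higher and 1 lower in E4 mice, where the higher genes made up 9.24% of all genes. The median log2 difference over the 38 was 0.29. In the same comparison the median log2 difference was 0.27 over 12 microglial markers (1 higher, 0 lower) and 0.28 over 10 monocyte and macrophage markers (0 higher, 0 lower), and their part in the difference was not tested. Npc2 (0.40 ± 0.11, adjusted p = 0.0630), Gm2a (0.27 ± 0.08, adjusted p = 0.0638), Laptm5 (0.67 ± 0.19, adjusted p = 0.0660) and Ctsz (0.56 ± 0.16, adjusted p = 0.0698) came next.

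In the other strata no lysosomal gene passed between isoforms. In Abca1+/- sham mice 5.13% of all genes passed. Of the 38, 6 had an unadjusted p under 0.05, as had 23.2% of all genes, and 0 passed with DESeq2. Idua was nearest, at -0.31 (95% interval -0.54 to -0.08, adjusted p = 0.121). In Abca1+/+ sham mice 0.349% of all genes passed. Of the 38, 4 had an unadjusted p under 0.05, as had 8.75% of all genes, and 0 passed with DESeq2. Hexa was nearest, at -0.19 (95% interval -0.33 to -0.06, adjusted p = 0.328). In Abca1+/+ TBI mice 0.211% of all genes passed. Of the 38, 0 had an unadjusted p under 0.05, as had 7.2% of all genes, and 0 passed with DESeq2. Idua was nearest, at -0.25 (95% interval -0.51 to 0.01, adjusted p = 0.748). In that last stratum Ctss differed by -0.10 (95% interval -0.46 to 0.27, adjusted p = 0.993) and Ctsl by -0.09 (95% interval -0.38 to 0.20, adjusted p = 0.989).

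Between Abca1 copies none of the 38 passed in any stratum. In E4 TBI mice 1.39% of all genes passed in either direction. At an unadjusted p under 0.05, 20 of the 38 were higher in Abca1+/- mice and none lower, where 8.56% of all genes were higher, and DESeq2 passed 3 of the 38 and 4.72% of all genes. The median log2 difference over the 38 was 0.30. In the same comparison the median log2 difference was 0.29 over 12 microglial markers (0 higher, 0 lower) and 0.25 over 10 monocyte and macrophage markers (0 higher, 0 lower), and their part in the difference was not tested. Ctss, whose values stand above, had a log2 difference of 0.71 (95% interval 0.34 to 1.09, adjusted p = 0.0751). Ctsz ran from 96.2 to 189 CPM (median 146) in E4/Abca1+/- TBI mice, from 76.2 to 119 CPM (median 91.8) in E3/Abca1+/- TBI mice and from 55.7 to 170.4 CPM (median 77.3) in E4/Abca1+/+ TBI mice. Cd63 ran from 39.3 to 82.5 CPM (median 67.7) in E4/Abca1+/- TBI mice, from 35.2 to 54.8 CPM (median 46.1) in E3/Abca1+/- TBI mice and from 26.9 to 69.4 CPM (median 39.8) in E4/Abca1+/+ TBI mice. The 2 E4 ranges overlapped in both genes, and the highest E4/Abca1+/+ TBI mouse was replicate 6. Npc2 ran from 92.2 to 163 CPM (median 132) in E4/Abca1+/- TBI mice, from 79.0 to 109 CPM (median 95.0) in E3/Abca1+/- TBI mice and from 62.9 to 148 CPM (median 82.9) in E4/Abca1+/+ TBI mice. Ctsh ran from 26.8 to 61.1 CPM (median 44.3) in E4/Abca1+/- TBI mice, from 21.9 to 38.2 CPM (median 30.1) in E3/Abca1+/- TBI mice and from 18.9 to 53.0 CPM (median 22.8) in E4/Abca1+/+ TBI mice. Log2 differences in E4 TBI mice were 0.43 ± 0.13 (adjusted p = 0.106) for Ctsl, 0.70 ± 0.22 (adjusted p = 0.107) for Ctsz, 0.58 ± 0.18 (adjusted p = 0.107) for Cd63, 0.45 ± 0.15 (adjusted p = 0.137) for Npc2 and 0.64 ± 0.22 (adjusted p = 0.144) for Ctsh. The count turned on 1 mouse, since 17 of the 38 passed without replicate 6 of E4/Abca1+/+ TBI, a fit in which 5.18% of all genes passed. The E4/Abca1+/- TBI mice serve in this comparison and in the one between isoforms, so the pair is not independent. Totals ran from 5192820 to 14939612 in E4/Abca1+/+ and from 5471936 to 37877346 in E4/Abca1+/- TBI mice. With all libraries thinned to the lowest total, the median log2 difference over the 38 was 0.31 and 0 passed.

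In E4 sham mice 0.903% of all genes passed between Abca1 copies. Of the 38, 9 had an unadjusted p under 0.05, as had 15.7% of all genes, and 0 passed with DESeq2. Ctsd was nearest, at 0.34 (95% interval 0.12 to 0.55, adjusted p = 0.151). Without replicate 2 of E4/Abca1+/- sham, 0 of the 38 passed. In E3 sham mice 2.2% of all genes passed. Of the 38, 7 had an unadjusted p under 0.05, as had 16.5% of all genes, and 2 passed with DESeq2. Tpp1 was nearest, at -0.12 (95% interval -0.19 to -0.05, adjusted p = 0.0814). DESeq2 passed 4.81% of all genes there. In E3 TBI mice 0.178% of all genes passed. Of the 38, 2 had an unadjusted p under 0.05, as had 8.99% of all genes, and 0 passed with DESeq2. Gaa was nearest, at 0.13 (95% interval 0.04 to 0.22, adjusted p = 0.382). There Ctss differed by -0.06 (95% interval -0.32 to 0.20, adjusted p = 0.958) between Abca1 copies.

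**Figure D5:**
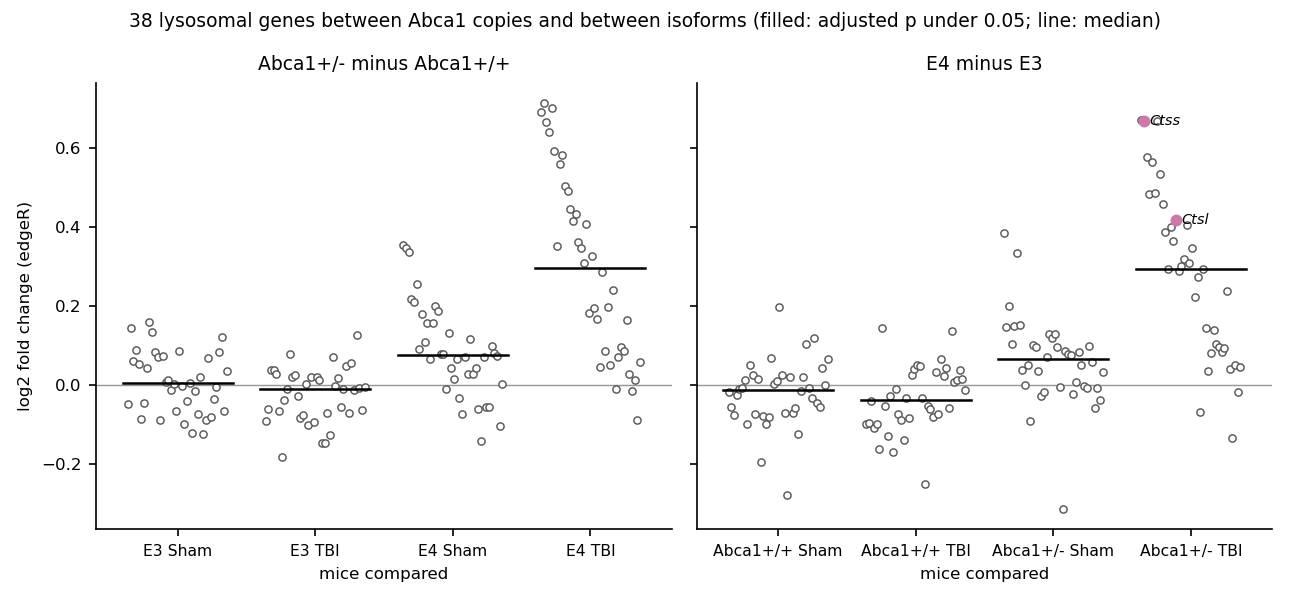
Log2 differences of the 38 lysosomal genes (each point 1 gene, in the order of their injury response) between Abca1 copies (left) and between isoforms (right), in each stratum (x axis); black lines are medians and filled points have an adjusted p under 0.05. The medians lie near 0 except in E4 TBI mice (0.30) and in Abca1+/- TBI mice (0.29), and the filled points are Ctss and Ctsl.

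Averaged over injury and the other genotype, with all 58 mice, 3 of the 38 genes were higher and 1 lower in E4 than in E3 mice. Of all genes 15% passed in either direction, a larger share, so the count is not read as particular to the lysosomal genes. The average between isoforms joins unlike strata. The median log2 difference over the 38 was -0.01 in Abca1+/+ sham and -0.04 in Abca1+/+ TBI mice. It was 0.06 in Abca1+/- sham and 0.29 in Abca1+/- TBI mice. Gla was higher by 0.15 ± 0.04 (adjusted p = 0.0171), Laptm5 by 0.25 ± 0.08 (adjusted p = 0.0378) and Lamp1 by 0.10 ± 0.03 (adjusted p = 0.0295), and Idua was lower, at -0.23 ± 0.07 (adjusted p = 0.0189). The medians of Gla in TBI mice were 14.5, 15.9, 16.0 and 19.1 CPM in E3/Abca1+/+, E3/Abca1+/-, E4/Abca1+/+ and E4/Abca1+/- mice and those in sham mice 14.9, 14.7, 16.3 and 16.2 CPM. The medians of Idua were 18.1, 17.4, 16.6 and 16.5 CPM in TBI and 15.3, 14.1, 11.1 and 11.4 CPM in sham mice. The mice of the 8 groups overlapped for both genes, at 10.8 to 21.9 CPM for Gla and 8.21 to 30.3 CPM for Idua. Lamp1 ran from 446 to 646 CPM (median 555) in E4/Abca1+/- TBI, from 404 to 602 CPM (median 446) in E4/Abca1+/+ TBI and from 409.5 to 509 CPM (median 465) in E3/Abca1+/- TBI mice. After thinning to the depth of the shallowest library, 2 of the 38 passed, and 10.1% of all genes.

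In the same fit 8 of the 38 were higher and 1 lower in Abca1+/- than in Abca1+/+ mice, against 17.9% of all genes in either direction. The count lies near that share and is not read as particular to the lysosomal genes. The average between Abca1 copies joins unlike strata. Within strata, the median log2 difference over the 38 was 0.004 in E3 sham and -0.01 in E3 TBI mice. It was 0.07 in E4 sham and 0.30 in E4 TBI mice. The higher genes were Ctss (0.29 ± 0.08, adjusted p = 0.00826), Cd63 (0.21 ± 0.08, adjusted p = 0.0390), Ctsh (0.25 ± 0.09, adjusted p = 0.0416), Ctsz (0.25 ± 0.09, adjusted p = 0.0341), Npc2 (0.18 ± 0.06, adjusted p = 0.0296), Ctsl (0.16 ± 0.05, adjusted p = 0.0369), Psap (0.08 ± 0.02, adjusted p = 0.0118) and Gaa (0.07 ± 0.03, adjusted p = 0.0484). Psap ran from 1924 to 2004 CPM (median 1958) in E3/Abca1+/- sham mice and from 1802 to 1963 CPM (median 1869.7) in E3/Abca1+/+ sham mice, and from 1863 to 2128 CPM (median 1932) in E4/Abca1+/- and from 1804 to 1923 CPM (median 1849.5) in E4/Abca1+/+ sham mice. After TBI the highest E3/Abca1+/- mouse was at 2293 CPM and the highest E3/Abca1+/+ mouse at 2278 CPM, and the E4/Abca1+/- TBI median was 2314 CPM against 2062 CPM in E4/Abca1+/+ TBI mice. Mcoln1 was lower in Abca1+/- mice, at -0.08 ± 0.03 (adjusted p = 0.0460), with medians of 56.3, 54.4, 55.8 and 54.0 CPM in TBI and 58.9, 56.2, 58.2 and 55.2 CPM in sham mice. The ranges of Abca1+/- and Abca1+/+ mice overlapped for each of these genes. The count was 2 without replicate 2 of E4/Abca1+/- sham (16.2% of all genes) and 18 without replicate 6 of E4/Abca1+/+ TBI (19.5%). Thinned to equal depth, 5 of the 38 passed (12.6%).

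The promoters of the members were read because many lysosomal genes share a palindromic element bound by the TFEB family of transcription factors, and because phagocyte genes are often controlled by PU.1. RefSeq promoters (250 bases before to 50 after the start, mouse assembly GRCm38.p6, the assembly that mm10 names) were at hand for 34 of the 38 genes; Asah1, Ctsb, Ctsh and Npc1 had none. The letters CACGTG, the core of that element, occurred in 11 of the 34 (32.4%) and in 11.2% of 11426 genes of the table with a promoter. The longer TCACGTGA, which contains it, occurred in 4 (11.8% against 1.99%), and GAGGAA, letters found in PU.1 sites, in 15 (44.1% against 30.4%), each searched on both strands. In the 100 bases before the start the shares were 23.5% against 5.27% for CACGTG, 8.82% against 1.13% for TCACGTGA and 11.8% against 10.9% for GAGGAA. These are matches of letters, with no measurement of binding.

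The genes with CACGTG were Ctsa, Ctsd, Ctsl, Gaa, Gla, Glb1, Lamp1, Lgmn, Mcoln1, Naglu and Sgsh, a set that holds genes with large, small and no change after TBI. Of these 11, 6 passed in all 4 genotypes and 3 in none, with a median of the mean log2 fold changes of 0.47. Of the 23 without it, 15 passed in all 4 and 3 in none, with a median of 0.62. The 100 bases before the start are shown, 5′ to 3′ on the strand of the gene with CACGTG in capitals, for 2 genes that hold it, Lamp1 with 4 matches (61, 45, 28 and 15 bases before the start) and Lgmn with 1 (49 bases before 1 of its 2 RefSeq starts). The genes with the largest mean changes, Cd68 and Ctss, and the one with the lowest, Smpd1, have no match in this window.
Lamp1 (chr8:13159061-13159160, plus strand): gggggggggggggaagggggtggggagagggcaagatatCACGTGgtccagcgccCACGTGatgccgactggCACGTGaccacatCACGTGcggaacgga
Lgmn (chr12:102439093-102439192, minus strand): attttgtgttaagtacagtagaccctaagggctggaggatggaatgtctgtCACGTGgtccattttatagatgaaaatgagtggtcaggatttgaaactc
Cd68 (chr11:69666171-69666270, minus strand): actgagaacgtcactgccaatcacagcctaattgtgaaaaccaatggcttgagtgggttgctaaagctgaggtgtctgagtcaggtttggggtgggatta
Ctss (chr3:95526686-95526785, plus strand): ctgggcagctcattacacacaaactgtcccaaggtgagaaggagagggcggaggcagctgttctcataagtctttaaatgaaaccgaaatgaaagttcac
Smpd1 (chr7:105554260-105554359, plus strand): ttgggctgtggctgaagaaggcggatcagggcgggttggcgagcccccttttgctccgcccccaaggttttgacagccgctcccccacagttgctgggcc

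Other lysosomal genes, from lists of the same organelle, were mixed. Of 21 further lysosomal enzymes, 12, 11, 9 and 15 were higher after TBI in the 4 genotypes and at most 1 was lower. Acp5, the tartrate-resistant acid phosphatase of macrophages and osteoclasts, rose from a mean of 0.305 to 1.71 CPM and Dnase2a, the acid deoxyribonuclease, from 3.28 to 9.18 CPM. Of 16 further membrane proteins 6, 7, 5 and 7 were higher, led by the phagosomal metal transporter gene Slc11a1 at a mean log2 fold change of 2.38. The vacuolar proton pump that acidifies lysosomes was largely apart from them. Of its 20 subunit genes 3, 3, 3 and 3 were higher and 1, 3, 2 and 6 lower, with medians of -0.07, -0.06, -0.04 and -0.10. The higher ones were Atp6v0d2, which went from 0.0537 to 2.85 CPM, Tcirg1 (mean log2 fold change 1.10) and Atp6v0e (0.51).

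Of 12 genes of sorting to lysosomes 1, 2, 1 and 4 were higher and 3, 0, 0 and 3 lower. Of 14 regulators of lysosomal genes that were counted, 0, 0, 0 and 1 were higher and 2, 2, 0 and 2 lower, and the higher one was Tfeb in E4/Abca1+/- mice, at 0.76 on the log2 scale. Its change there differed from the one in E3/Abca1+/- mice by 0.63 ± 0.16 (adjusted p = 0.707) and from the one in E4/Abca1+/+ mice by 0.65 ± 0.17 (adjusted p = 0.952), with edgeR's quasi-likelihood test of the interactions. Of 6 inhibitors of cathepsins, 5, 5, 3 and 5 were higher and none lower. Cst7, cystatin F, an inhibitor that acts inside lysosomes of immune cells, went from a mean of 0.372 to 11.8 CPM, and Cst3, the secreted cystatin C, from 289.6 to 447 CPM.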

How the data were processed

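RNA from the pooled hippocampus and cortex of each of 58 mice was sequenced. The authors deposited raw counts per gene for 15171 genes, aligned to mm10 and counted with Subread 1.5.0 and featureCounts per the submitters' processing notes, which also name edgeR. How these genes were selected is not given in the sources used here. Counts were used as deposited, after 2 blank lines were removed and 23 symbols that stood as spreadsheet date numbers were replaced from their identifiers. Each of 183 pairs of mice from the same group was compared, and 0 pairs had the same counts throughout.

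Libraries were scaled by TMM and tested with the quasi-likelihood test of edgeR 4.0.16 in R 4.3.3, fitting the mice of the groups compared (all 8 groups for interactions with sex and for effects over all groups). The filterByExpr filter removed 0 genes. Adjusted p-values are by Benjamini-Hochberg over all genes, and SE is the log2 fold change divided by the root of the F statistic. P-values judge a difference between groups against the spread between mice. The test was tried on simulated counts with known changes. Alternatives were DESeq2 1.42.0 (Wald test, size factors), no filter, a filter of 1 CPM in at least 6 mice, a single fit, sex as a covariate, thinning to the lowest total and leaving out each mouse in turn. Filtering within the mice compared, leaving out each mouse between isoforms in injured Abca1+/- mice, and leaving out replicate 2 of E4/Abca1+/- sham or replicate 6 of E4/Abca1+/+ TBI from other comparisons that hold them were added after seeing the data. Means of log2 levels use a pseudocount of 1. CPM per kilobase uses the union of exons in GENCODE M21, found for 14683 genes (96.8%), in place of the transcript length that had been planned. Promoters are those of RefSeq on GRCm38.p6. Counting error limits low genes, and the shallowest library held 4421308 counts.

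Genes given with group ranges are the 8 with the largest and the 4 with the smallest mean change after TBI, those past the threshold between isoforms, between Abca1 copies or in an interaction, and up to 6 with the lowest p where none passed. The members, the lists and this rule were chosen with earlier results of these data known.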

Additional observations from a re-analysis of the deposited data

Results flagged for a closer look

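Each of the 38 lysosomal genes was examined in each of the 8 groups for a mouse whose gap to the nearest other mouse was past Dixon's 95% critical value for the group's size. Of these 304 sets of values 32 met that criterion. All 38 genes were measured in the same mice, so the sets are not independent. Their number is therefore not set against a rate of chance. The values are set beside that of the nearest other mouse of the group, and no cause was tested.

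Replicate 2 of E4/Abca1+/- sham accounted for 14 of the 32, all as the highest mouse. Among proteases these were Ctsd (724 CPM against 453), Ctsb (841 CPM against 741), Lgmn (133 CPM against 119), Ctsl (125 CPM against 97.9), Ctsz (55.7 CPM against 36.0) and Ctsh (16.0 CPM against 11.9). Among membrane proteins they were Lamp1 (403 CPM against 365), Lamp2 (107 CPM against 89.9), Laptm5 (62.0 CPM against 46.6), Cd63 (33.1 CPM against 21.8) and Cd68 (19.0 CPM against 11.2). The others were Grn (102 CPM against 78.0), Man2b1 (71.2 CPM against 60.2) and Gusb (19.5 CPM against 14.4). Its mean log2(CPM + 1) over the 38 genes also stood apart, at 6.16 against 5.88.

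Replicate 6 of E4/Abca1+/+ TBI was apart as the highest mouse for Lgmn (278 CPM against 192), Ctsl (237 CPM against 167), Scarb2 (119 CPM against 103), Asah1 (95.8 CPM against 69.8) and Glb1 (39.4 CPM against 29.4). In E4/Abca1+/+ sham, replicate 5 was the highest for Glb1 (29.6 CPM against 26.4) and Ctsc (13.3 CPM against 8.51). In E3/Abca1+/+ TBI, replicate 8 was the highest for Npc1 (109 CPM against 87.8) and Idua (30.3 CPM against 19.3).

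The genes that passed in no genotype made up much of the rest. Gaa was apart in replicate 2 of E3/Abca1+/+ TBI (505 CPM against 455) and in replicate 2 of E4/Abca1+/+ TBI (549 CPM against 468) as the highest mouse, and in replicate 8 of E4/Abca1+/- TBI (369 CPM against 442) as the lowest. Mcoln1 was highest in replicate 1 of E4/Abca1+/+ TBI (67.6 CPM against 56.8), and lowest in replicate 7 of E4/Abca1+/- TBI (46.6 CPM against 52.6) and in replicate 6 of E3/Abca1+/- TBI (47.2 CPM against 53.3), the mouse that was highest for Neu1 (61.6 CPM against 54.9). Idua was lowest in replicate 2 of E4/Abca1+/+ TBI (10.8 CPM against 16.1) and Asah1 in replicate 1 of E3/Abca1+/+ sham (44.4 CPM against 50.3).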

How the results depend on the processing

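The counts of lysosomal genes higher after TBI varied little. Leaving out each mouse in turn gave 25 to 28 in E3/Abca1+/+, 30 to 31 in E3/Abca1+/-, 23 to 27 in E4/Abca1+/+ and 32 to 33 in E4/Abca1+/- mice. No share of all genes is given for these ranges, so they are not read as particular to the lysosomal genes. Of 159 counts and levels recomputed under the other settings, 149 were classed as the same and 10 as moved. The limits behind these classes are not given here. Comparisons between genotypes depended on the setting. Between isoforms in Abca1+/- TBI mice the count of 2 became 7 with sex as a covariate (3.76% of all genes). It became 0 to 13 without 1 mouse (1.05 to 4.01%), 10 with DESeq2's Wald test and 15 in a single fit over all 58 mice. Between Abca1 copies the count of 0 in E4 TBI mice became 3 with DESeq2 (4.72% of all genes). It became 0 to 17 without 1 mouse (5.18% at 17), 1 with sex as a covariate and 20 in the single fit. In E3 sham mice the count of 0 became 2 with DESeq2 (4.81%). No share of all genes is given for the counts of 10, 15, 1 and 20, so these are not read as particular to the lysosomal genes. With libraries thinned to the lowest total, the counts over all groups fell from 4 to 2 between isoforms and from 9 to 5 between Abca1 copies. Thinning leaves fewer reads, takes away the difference in depth between Abca1 copies and left 14053 genes tested. These were not separated. Leaving out replicate 2 of E4/Abca1+/- sham or replicate 6 of E4/Abca1+/+ TBI gave 3 to 3 between isoforms, with no share of all genes given. Between Abca1 copies it gave 2 to 18 (16.2 and 19.5% of all genes). For single genes after TBI, 722 values without 1 mouse kept direction and call, 23 lost the call and 5 reversed. Under other settings 480 kept both, 8 lost the call and 3 reversed. Each reversal was of a value near 0. Without 1 mouse Gaa ran from -0.0118 to 0.0446 in E3/Abca1+/+ and from -0.0374 to 0.0276 in E4/Abca1+/- mice. Gaa in E3/Abca1+/+ mice became -0.0118, -0.0103 or -0.00488 without TBI replicate 2, sham replicate 5 or sham replicate 6, and in E4/Abca1+/- mice 0.0159 in the single fit and 0.0276 or 0.0265 without sham replicate 5 or TBI replicate 8. Neu1 in E4/Abca1+/- mice became 0.00316 in the single fit and 0.0138 when thinned. The share of members with GAGGAA was 11.8% in the 100 bases before the start, a shorter window, against 44.1% in 300 bases. Apart from the shorter window, the cause of these changes was not tested. No paired analysis was possible because the labels give every mouse its own number, which no mouse of another group shares.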

Other observations

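Of 8 oligodendrocyte markers 0, 1, 0 and 5 were higher and 1, 0, 0 and 0 lower after TBI in E3/Abca1+/+, E3/Abca1+/-, E4/Abca1+/+ and E4/Abca1+/- mice, with median log2 fold changes of -0.11, 0.06, -0.03 and 0.21. Of 8 endothelial markers 2, 1, 0 and 3 were higher and none lower, with medians of 0.17, 0.10, 0.11 and 0.12. Of 7 markers of hippocampal neurons 0, 0, 1 and 0 were higher and 2, 0, 1 and 2 lower. Of 4 choroid plexus markers 1, 0, 0 and 0 were higher. Their sum in E3/Abca1+/+ TBI mice had a median of 15.9 CPM. It reached 1347 CPM in replicate 7 and 41.2 CPM in the next mouse, replicate 5. The part of replicate 7 in the call was not tested.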
